A study of Mus musculus with 10 samples.

Results

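1600002K03Rik is a short gene on mouse chromosome 10 whose current RefSeq symbol is Fam174c. It is described here with 3 named genes beside it, Cirbp, Efna2 and Midn, so that the set is 4 of the 55401 genes listed in the count files. 1600002K03Rik was chosen because its level rose with both of the repressors described next, so its changes are given as a description with no test. Cirbp, Efna2 and Midn were taken for their position beside it (GRCm38 coordinates, GENCODE M21 annotation), and their changes are tested.

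The study measured RNA in Neuro2a cells, a mouse neuroblastoma line, after transfection with plasmids meant to lower SCN9A, the gene of the sodium channel Nav1.7. In the first arm 3 dCas9-SCN9A libraries (a Cas9 that binds DNA without cutting it, directed at SCN9A) stood against 3 dCas9-empty libraries. In the second arm 2 ZF-SCN9A libraries (an engineered zinc-finger protein) stood against 2 mCherry libraries (a red fluorescent protein), taken here as their control. All 10 libraries came from cells whose genotype is given as wild-type. The sources used here do not say where the repressors bind or what dCas9-empty lacks. Each library is bulk RNA, so more cells with a transcript and more RNA per cell cannot be told apart, nor can transfected cells and cells without plasmid.

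Depth, as the sum of gene counts in M (1e+06 counts), was 17.8 to 19.0 M per dCas9-empty library, 15.4 to 16.4 M per dCas9-SCN9A library, 6.59 to 7.48 M per mCherry library and 4.41 to 6.30 M per ZF-SCN9A library. The targeted gene Scn9a stood at 78.2 ± 2.91 CPM (counts per 1e+06 gene counts after TMM scaling, SD, n = 3) in dCas9-empty and 30.0 ± 1.56 CPM (SD, n = 3) in dCas9-SCN9A. It stood at 59.4 ± 4.27 CPM (SD, n = 2) in mCherry and 17.3 ± 2.25 CPM (SD, n = 2) in ZF-SCN9A. The summed level of 9 sympathoadrenal markers of Neuro2a cells lay between 1153 and 1643 CPM in every library. Summed markers of other cells were low in all libraries, at 8.12 to 21.8 CPM for 5 fibroblast genes, 23.8 to 37.7 CPM for 5 glial genes and 15.4 to 24.8 CPM for 4 immune and endothelial genes. Of these lists edgeR called none in the dCas9 arm, as did DESeq2 and limma-voom, with 1 fibroblast gene lower at an unadjusted p under 0.05. Over all genes of that arm edgeR called 0.041%, and 10.1% had such a p. In the zinc-finger arm edgeR called Dbh (0.71 ± 0.18 on the log2 scale, SE) and the fibroblast collagen gene Col1a1 (1.07 ± 0.35, SE) higher and Isl1 (-0.41 ± 0.10, SE) and Hand2 (-0.20 ± 0.06, SE) lower, in an arm where 4.72% of all genes were called. DESeq2 called none of these 4 (it gave Col1a1 no adjusted p), and limma-voom called 3 Neuro2a markers but not Col1a1. Reads that were given to no gene also moved with the groups, at 25.0% to 27.1% of reads in dCas9-empty and 27.6% to 28.2% in dCas9-SCN9A, and at 25.8% to 25.9% in mCherry and 27.3% to 28.2% in ZF-SCN9A. Their ranges did not overlap in either arm, as those of 1600002K03Rik did not. The part of these markers and reads in the results that follow was not tested.

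The 4 genes do unrelated work. 1600002K03Rik belongs to the FAM174 family of small predicted membrane proteins. Cirbp encodes the cold-inducible RNA-binding protein, whose messenger RNA rises when cells are mildly cooled and which binds many other messenger RNAs. Efna2 encodes ephrin-A2, a ligand anchored in the cell surface that binds EphA receptors and guides axons. Midn encodes midnolin, a nuclear protein that carries short-lived transcription factors to the proteasome for breakdown without ubiquitin.

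All 4 genes lie on the plus strand, and none of their exon bases is shared with an exon of another gene. 1600002K03Rik (ENSMUSG00000035595) spans chr10:80172944-80175146, with 678 exon bases. Cirbp (ENSMUSG00000045193, chr10:80165985-80172786) ends 157 bases before it. Midn (ENSMUSG00000035621, chr10:80148272-80158368) ends 14575 bases before it, and Efna2 (ENSMUSG00000003070, chr10:80179482-80190010) starts 4335 bases after its end. The members are thus a tight file of genes read in one direction, with Cirbp and 1600002K03Rik almost touching.

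Because Cirbp and 1600002K03Rik are so close, the DNA between them is shown whole, and beside it the non-exonic stretch before a start site of Cirbp. The first is the 157 bases from the end of Cirbp to the start of 1600002K03Rik, chr10:80172787-80172943, and the second is chr10:80167589-80167777, both on the plus strand of GRCm38.p6 and read from RefSeq. Capitals mark, on either strand, GC boxes (GGGCGG), boxes of the letters CCAAT and the mild-cold response element (TCCCCGCC).
1600002K03Rik: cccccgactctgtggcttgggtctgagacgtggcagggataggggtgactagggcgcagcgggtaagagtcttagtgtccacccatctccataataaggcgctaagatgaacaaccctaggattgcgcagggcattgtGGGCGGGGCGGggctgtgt
Cirbp: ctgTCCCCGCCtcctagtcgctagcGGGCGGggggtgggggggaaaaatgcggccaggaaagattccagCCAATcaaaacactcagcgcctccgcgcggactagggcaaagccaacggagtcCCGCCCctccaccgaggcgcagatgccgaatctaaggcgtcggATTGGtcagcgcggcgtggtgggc

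The stretch before 1600002K03Rik held 2 GC boxes, at 19 and 14 bases before the start, which share a base with each other. A GC box was present in 29.1% of stretches of the same length that end at RefSeq start sites (32851 windows), so its presence does not set this one apart. None of the other motifs searched on both strands was found there. These were the ETS core (CGGAAG, in 10.6% of such stretches), the TATA box (TATAAA, 7.87%), the CCAAT box (25.2%), the mild-cold response element (3.54%), the E box (CACGTG, 4.42%), the cAMP response element (TGACGTCA, 1.38%) and the NRF1 core (GCGCATGC, 1.85%). The Cirbp stretch, 189 bases long, held the mild-cold response element 247 bases before its start site (chr10:80167839), with 2 GC boxes and 2 CCAAT boxes. Between the stretch and that site lie 61 exonic bases that are not printed. The stretch lies within Cirbp as GENCODE M21 spans it, from chr10:80165985, and the DNA before that GENCODE start was not examined. RefSeq gives Cirbp another start site, chr10:80168171, and the 250 bases before it held GC boxes but none of the other motifs. In windows of 250 bases the mild-cold response element was present in 4.64%, a GC box in 32.7% and a CCAAT box in 33.8%. These matches describe the letters only.

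1600002K03Rik stood higher in every repressor library than in any control library. In dCas9-empty it read 7.54, 9.77 and 10.4 CPM (replicates 1 to 3) and in dCas9-SCN9A 16.2, 17.0 and 20.7 CPM. In mCherry it read 8.41 and 6.07 CPM and in ZF-SCN9A 16.3 and 16.1 CPM. Groups that do not overlap were found for 15.6% of all genes tested in the dCas9 arm and 45.6% in the zinc-finger arm. Across the arms, the lowest repressor library, at 16.1 CPM, lay above the highest control library, at 10.4 CPM. CPM was scaled within each arm, so levels of different arms compare less directly. The gene was chosen for this rise, so its separation is a description only.

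The group means were 9.24 ± 1.51 CPM (SD, n = 3) in dCas9-empty and 18.0 ± 2.37 CPM (SD, n = 3) in dCas9-SCN9A. They were 7.24 ± 1.66 CPM (SD, n = 2) in mCherry and 16.2 ± 0.136 CPM (SD, n = 2) in ZF-SCN9A. Ordered from high to low the groups ran dCas9-SCN9A, ZF-SCN9A, dCas9-empty, mCherry. The libraries of the first 2 groups overlapped, as did those of the last 2, so the order within each pair does not exceed the spread.

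The fitted log2 fold change of 1600002K03Rik was 0.96 ± 0.13 (SE) with dCas9-SCN9A, a 1.94-fold higher level, with a 95% interval of the log2 value from 0.69 to 1.23. With ZF-SCN9A it was 1.17 ± 0.22 (SE), 2.26-fold, with an interval from 0.74 to 1.61. The difference between them (dCas9-SCN9A minus ZF-SCN9A) was -0.21 ± 0.25 (SE), with an interval from -0.73 to 0.31. That interval spans 0 and is wide, so these libraries do not resolve whether one repressor moved the gene more than the other.

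The values rest on few reads, from 45 in mCherry replicate 2 to 326 in dCas9-SCN9A replicate 3. By size of log2 fold change 1600002K03Rik was the 84th highest of 14628 genes in the dCas9 arm and the 69th highest of 12899 in the zinc-finger arm. These ranks are over genes of every level of expression, and low genes scatter more widely.

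**Figure D1:**
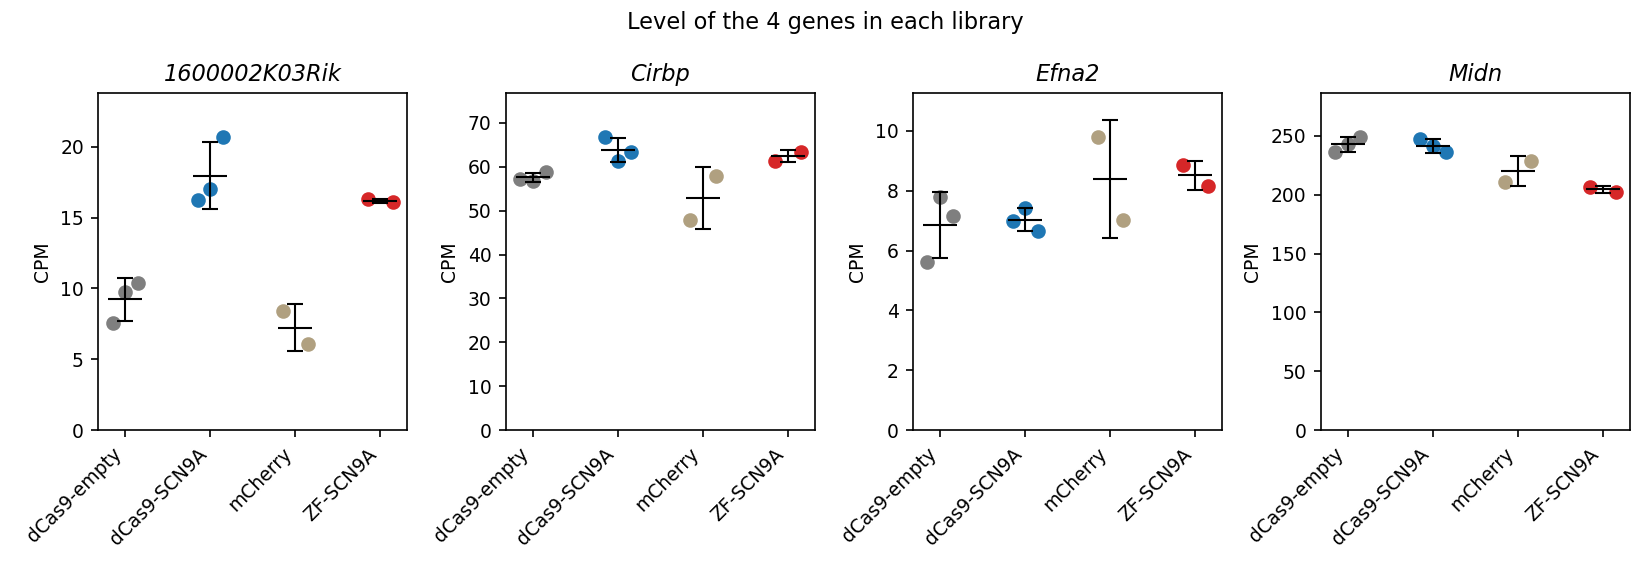
Level in CPM (vertical axis from 0) of 1600002K03Rik, Cirbp, Efna2 and Midn in each of the 10 libraries, by group; points are libraries, the wide bar is the group mean and the whiskers are 1 SD. 1600002K03Rik lies at 6.07 to 10.4 CPM in the control libraries and at 16.1 to 20.7 CPM in the repressor libraries, while the other 3 genes shift little between groups.

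Cirbp, the neighbour 157 bases away, was a little higher in the repressor libraries, and this did not pass the test. It read 57.3, 56.7 and 58.8 CPM in dCas9-empty and 66.7, 61.4 and 63.3 CPM in dCas9-SCN9A. It read 47.8 and 57.8 CPM in mCherry and 61.4 and 63.3 CPM in ZF-SCN9A. In neither arm did the libraries of the groups overlap, which held for 15.6% of all genes tested in the dCas9 arm and for 45.6% in the zinc-finger arm.

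The log2 fold change of Cirbp was 0.15 ± 0.06 (SE) with dCas9-SCN9A, with an unadjusted p of 0.0243 and an adjusted p of 0.413 in edgeR's quasi-likelihood test. With ZF-SCN9A it was 0.23 ± 0.11 (SE), with an unadjusted p of 0.0311 and an adjusted p of 0.236 in the same test. Unadjusted p-values under 0.05 were found for 10.1% of all genes in the dCas9 arm and 16.2% in the zinc-finger arm, so such a p is common in both. The 95% intervals ran from 0.02 to 0.27 and from 0.02 to 0.45. Without mCherry replicate 1 the zinc-finger value was 0.11 (adjusted p = 0.837 in edgeR), and without mCherry replicate 2 it was 0.38 (adjusted p = 0.0503 in edgeR). The difference between the arms was -0.08 ± 0.12 (SE), with an adjusted p of 0.873 in edgeR.

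Efna2 did not differ between the groups by more than its spread. It read 5.63, 7.79 and 7.15 CPM in dCas9-empty and 6.99, 7.43 and 6.66 CPM in dCas9-SCN9A. It read 9.78 and 7.01 CPM in mCherry and 8.87 and 8.17 CPM in ZF-SCN9A. Its log2 fold changes were 0.03 ± 0.15 (SE, adjusted p = 0.962 in edgeR) and 0.04 ± 0.25 (SE, adjusted p = 0.965 in edgeR). At 36 to 146 reads per library the 95% intervals were wide, from -0.28 to 0.34 with dCas9-SCN9A and from -0.45 to 0.53 with ZF-SCN9A. A change of the size seen for 1600002K03Rik lies outside both intervals, and changes up to these bounds are not resolved.

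Midn, the most abundant member, was held to narrow limits in the dCas9 arm. It read 237, 243 and 249 CPM in dCas9-empty and 247, 241 and 236 CPM in dCas9-SCN9A. Its log2 fold change there was -0.01 ± 0.05 (SE, adjusted p = 0.975 in edgeR), with a 95% interval from -0.11 to 0.10. It read 211 and 229 CPM in mCherry and 207 and 202 CPM in ZF-SCN9A. Both ZF-SCN9A libraries lay below both mCherry libraries, but the value of -0.11 ± 0.07 on the log2 scale (SE, adjusted p = 0.497 in edgeR) did not pass the test.

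None of the 3 members chosen by position was therefore called at an adjusted p under 0.05 in either arm by edgeR, DESeq2 or limma-voom. Over all genes the share called by edgeR was 0.041% in the dCas9 arm and 4.72% in the zinc-finger arm, so a count of 0 in 3 is what most genes show. At an unadjusted p under 0.05, Cirbp alone of the 3 passed, in both arms. None of the 3 differed between the arms either, where 0.907% of 15766 genes did. The adjusted p-values of that difference in edgeR were 0.873 for Cirbp, 1 for Efna2 and 0.704 for Midn.

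Per length of exon, 1600002K03Rik went from below Cirbp to level with it. On the scale of CPM per kilobase of exon, 1600002K03Rik had a level of 13.6 ± 2.23 (SD, n = 3) in dCas9-empty beside 22.1 ± 0.410 (SD, n = 3) for Cirbp. In dCas9-SCN9A the levels were 26.5 ± 3.49 and 24.5 ± 1.03 (SD, n = 3). In mCherry they were 10.7 ± 2.44 and 20.3 ± 2.71 (SD, n = 2), and in ZF-SCN9A 23.9 ± 0.200 and 24.0 ± 0.515 (SD, n = 2). Midn stood above both genes on this scale in every group, at 47.5 to 56.4, and Efna2 below both, at 3.22 to 4.0. The annotated exon length covers all transcripts of a gene, so these levels depend on which of them the cells make.

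The ratio of the neighbours within a library needs no scaling between libraries. Per 100 Cirbp reads, 1600002K03Rik had 13.2, 17.2 and 17.7 reads in dCas9-empty and 24.3, 27.7 and 32.7 in dCas9-SCN9A. It had 17.6 and 10.5 in mCherry and 26.5 and 25.4 in ZF-SCN9A. The exact 95% interval was 15.1 to 20.8 for the highest control ratio and 21.1 to 28.0 for the lowest repressor ratio. In the shallower arm the intervals were wider, reaching 23.5 in mCherry replicate 1 and starting at 19.3 in ZF-SCN9A replicate 2. The intervals cover counting error within a library only, and reads may be copies of the same molecule. The ratio uses the reads by which 1600002K03Rik was chosen, so its higher values with the repressors are a description and no further support.

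**Figure D2:**
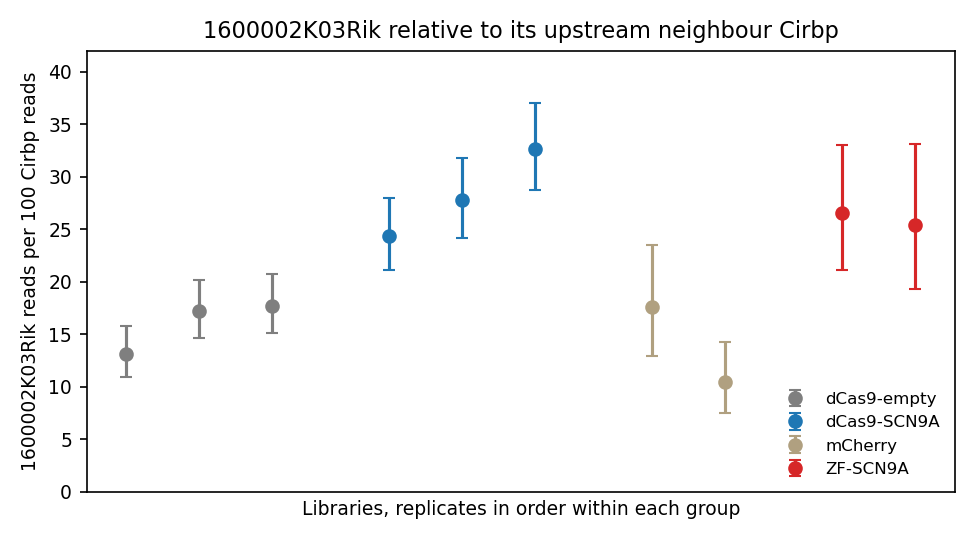
Reads of 1600002K03Rik per 100 reads of its upstream neighbour Cirbp (vertical axis from 0) in each library, coloured by group, with exact 95% intervals for counting error. The ratios lie at 10.5 to 17.7 in the 5 control libraries and at 24.3 to 32.7 in the 5 repressor libraries.

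The reads of the members were not shared with a gene on the other strand, as far as the count columns show it. The files give each gene an unstranded count and a count for each strand, and a gene that overlaps another loses reads from the unstranded one. For 1600002K03Rik the strand columns held 830 and 798 reads over the 10 libraries and summed to exactly the 1628 unstranded reads. The first of them held 51.0% (exact 95% interval from 48.5% to 53.4%), so the libraries did not keep strand. Cirbp likewise had 7552 reads by either count, and Midn 29898 against 29887. Efna2 had 915 against 914.

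1600002K03Rik is also the shortest of the 4, and both arms showed a drift with exon length. Tested genes were ranked by exon length and split into 5 groups. In the dCas9 arm the median log2 fold change was 0.09 in the group with the shortest exons, up to 1934 bases, and -0.06 in that with the longest. These medians were 0.05 and -0.04 in the zinc-finger arm. When exon length was put into the fit as an offset, the log2 fold change of 1600002K03Rik was 0.77 ± 0.13 (SE) with dCas9-SCN9A and 1.09 ± 0.22 (SE) with ZF-SCN9A. Those of Cirbp were 0.10 and 0.20 under the same offset. In the dCas9 arm the offset left a median of -0.0351 in the group with the shortest exons and -0.0128 in that with the longest. In the zinc-finger arm it left -0.00983 and -0.00598.

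**Figure D3:**
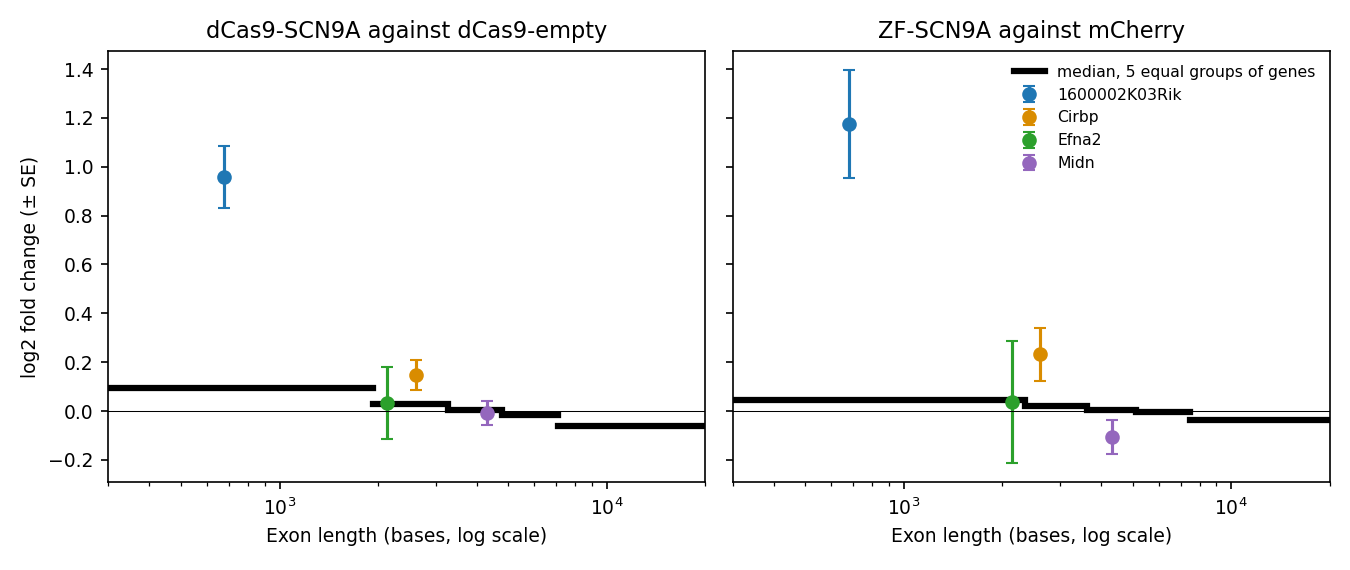
Log2 fold change (± SE, vertical axis) of the 4 genes against their exon length (horizontal log axis, bases), in each arm; black bars are the median log2 fold change of the tested genes split into 5 groups by exon length. 1600002K03Rik, with 678 exon bases, lies at 0.96 and 1.17, against medians of 0.09 and 0.05 in its group.

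The wider surroundings were examined in the 81 other listed genes with any base within 500000 bases of 1600002K03Rik. In the dCas9 arm 61 of them could be tested and none was called by edgeR's quasi-likelihood test, DESeq2 or limma-voom. At an unadjusted p under 0.05 in edgeR, 4 were higher and 2 lower, about the 10.1% of all genes. Their median log2 fold change was 0.04, beside 0.01 over all genes tested, and in 11 (18.0%) the groups did not overlap, near the 15.6% over all genes. At 10 CPM or more on average, the highest log2 fold changes in the window were those of Pcsk4, a proprotein convertase (0.22 ± 0.12, SE), Mum1, a PWWP-domain chromatin protein (0.20 ± 0.07, SE), and Cirbp. The lowest were those of Mex3d, an RNA-binding protein (-0.20 ± 0.06, SE), 2310011J03Rik (-0.13 ± 0.11, SE) and Klf16, a zinc-finger transcription factor (-0.11 ± 0.06, SE). The neighbours at this level of expression thus lay between -0.20 and 0.22, beside 0.96 for 1600002K03Rik, which itself stood at 9.24 CPM in dCas9-empty. Over all 61 tested neighbours, low ones included, values ran from -0.52 to 2.12, so the highest of them exceeded 1600002K03Rik.

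The interval of chromosome 10 from which the members were named holds 8 genes, and the 4 that are no members were not called in either arm. The nearest, Atp5d, which encodes a subunit of the mitochondrial ATP synthase, had log2 fold changes of 0.08 with dCas9-SCN9A and 0.05 with ZF-SCN9A. Stk11, the kinase LKB1, had 0.05 and 0.09. Cbarp, a regulator of calcium channels, had -0.01 and -0.15, and Sbno2 had -0.08 and 0.11. Their adjusted p-values in edgeR ran from 0.538 to 0.985.

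In the zinc-finger arm 57 genes of the window could be tested, of which 5 were called higher and 2 lower by edgeR. This share is larger than the 4.72% of all genes called in either direction. The median log2 fold change of the 57 was -0.04, beside 0.00 over all genes. In 30 of them (52.6%) the groups did not overlap, near the 45.6% over all genes. The higher genes were Gamt, an enzyme of creatine synthesis, from 7.93 ± 2.13 to 13.6 ± 1.70 CPM (SD, n = 2) with a log2 fold change of 0.74 ± 0.23 (SE), and 4 others at 0.38 to 0.44. These were Cnn2, an actin-binding calponin (0.44), Ndufs7, a subunit of respiratory complex I (0.44), Arhgap45, a GTPase-activating protein (0.43), and Reep6, an endoplasmic reticulum membrane protein (0.38). The lower genes were Mum1 and Abca7, a lipid transporter (-0.26). Plppr3, a membrane protein of neurons, had a value between those of Mum1 and Abca7 and was not called (-0.28 ± 0.14, SE, adjusted p = 0.285 in edgeR). Over all 57 tested neighbours, low ones included, values ran from -1.05 to 1.37, so the highest of them exceeded 1600002K03Rik at 1.17. The genes at both ends of that range were low in expression and were not called. At an unadjusted p under 0.05 in edgeR, 11 of the 57 were higher and 8 lower, a larger share than the 16.2% of all genes. DESeq2 gave an adjusted p to 49 of the 57 and called 1 of them, Mum1, and limma-voom called 7 of the 57.

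Of those 7 only Mum1 was called under all 16 alternatives tried. It went from 79.0 ± 4.11 CPM in mCherry to 52.3 ± 5.66 CPM in ZF-SCN9A (SD, n = 2), which is -0.61 ± 0.10 on the log2 scale (SE, adjusted p = 5.88e-07 in edgeR). Over the alternatives its value ran from -0.71 to -0.49 and its adjusted p from 5.24e-07 to 0.0244. Cnn2 was called in 12 of the 16, Arhgap45 and Ndufs7 in 11 each, Abca7 in 10, Gamt in 8 and Reep6 in 6. Each of those 6 lost its call without at least 1 library. Without mCherry replicate 1 the neighbours called came to 2, without ZF-SCN9A replicate 1 also to 2, and without ZF-SCN9A replicate 2 to 1.

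**Figure D4:**
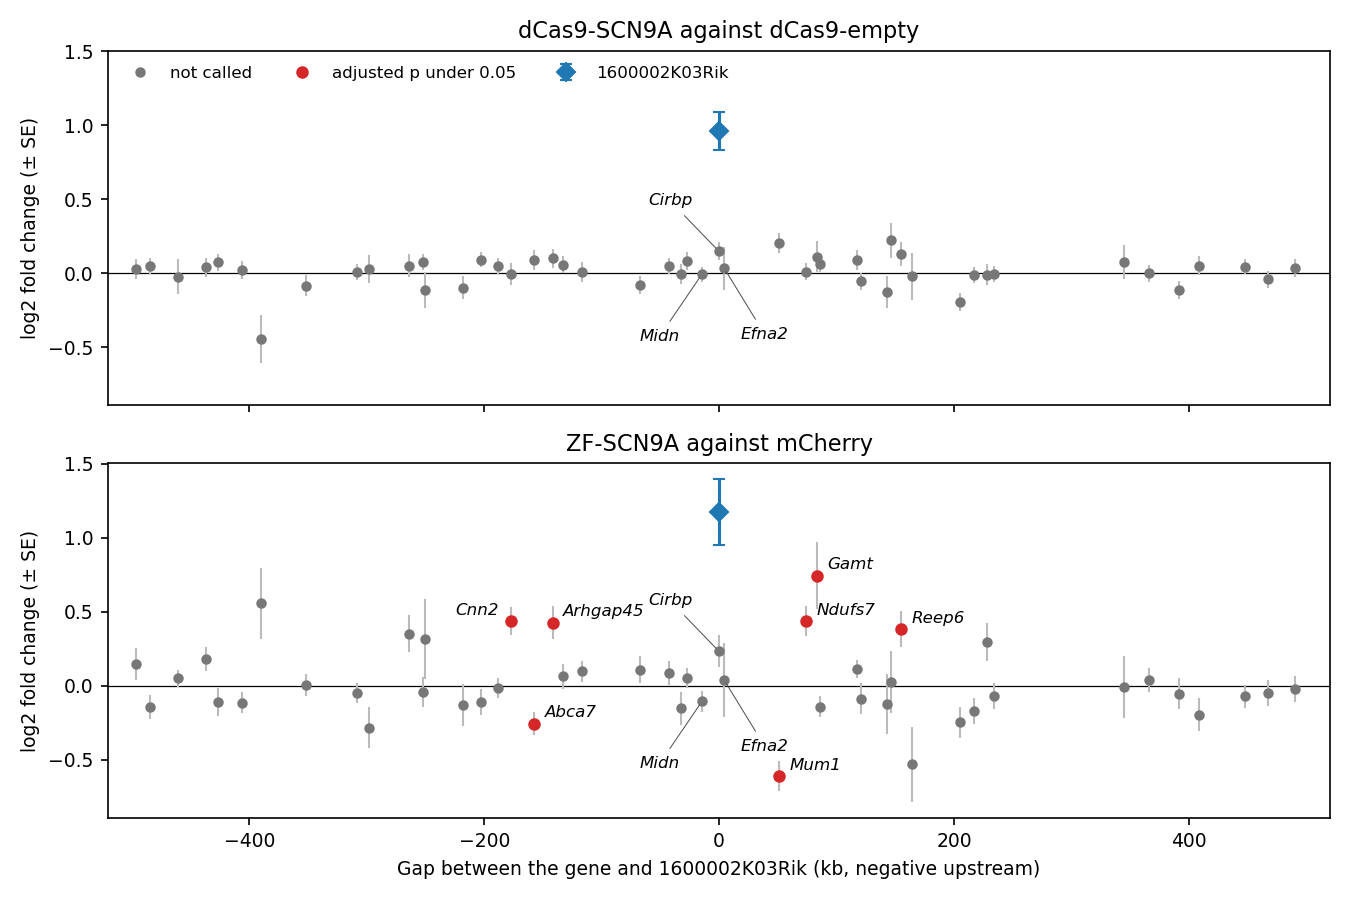
Log2 fold change (± SE, vertical axis) of genes within 500 kb of 1600002K03Rik against the gap between them (horizontal axis, kb, negative upstream), for genes at 5 CPM or more on average; red points have an adjusted p under 0.05 in edgeR, and the blue diamond is 1600002K03Rik. With dCas9-SCN9A no neighbour is called, and with ZF-SCN9A 7 are, of which Mum1 is the lowest at -0.61 and Gamt the highest at 0.74.

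Genes that share a pathway or family with the members were taken as lists. Of the FAM174 family, Fam174a and Fam174b were close to silent, at 0.00647 and 0.0110 CPM on average, and could not be tested. 1600002K03Rik was thus the only family member with a measurable level in these cells.

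Around Cirbp, 12 cold-inducible and heat-related genes were listed. In the dCas9 arm 11 were tested and 0 called by edgeR, DESeq2 or limma-voom, with 2 higher and 1 lower at an unadjusted p under 0.05. Their median log2 fold change was 0.01. In the zinc-finger arm 10 were tested and again 0 called by the 3 tools, with 1 higher at an unadjusted p under 0.05, which was Cirbp itself. Over all genes edgeR called 0.041% in the dCas9 arm and 4.72% in the zinc-finger arm, and 10.1% and 16.2% had such a p. All 10 listed genes tested in the zinc-finger arm had positive values, from 0.03 to 0.23 with a median of 0.07. Over all genes of that arm 50.4% of values were positive. The list mixes cold-inducible with heat-related genes, and what their shared sign means was not tested. The most abundant were the chaperones Hspa8 (0.08), Hsp90aa1 (0.08) and Hsph1 (0.05), and the other classic cold-inducible gene, Rbm3, had 0.06 ± 0.07 (SE) there and -0.04 ± 0.07 (SE) with dCas9-SCN9A.

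Around Efna2, 22 ephrins and Eph receptors were listed and 12 tested in each arm. None was called by edgeR, DESeq2 or limma-voom. At an unadjusted p under 0.05 there was 0 in the dCas9 arm and 1 lower in the zinc-finger arm, Efna5, another ephrin-A ligand. Over all genes edgeR called 0.041% in the dCas9 arm and 4.72% in the zinc-finger arm, and 10.1% and 16.2% had such a p. A count of 0 called in 12 is thus what most genes show. Efna5 had log2 fold changes of -0.07 ± 0.05 (SE) with dCas9-SCN9A and -0.19 ± 0.09 (SE) with ZF-SCN9A. The receptors Epha10 (0.23 and 0.35) and Ephb4 (0.01 and -0.36) were the next most abundant, and the median log2 fold changes over the 12 genes were -0.02 and 0.09.

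Around Midn, 10 genes were listed, namely midnolin and immediate early or other transcription factors it is known to degrade. Of these, 7 were tested in each arm. The values are of messenger RNA and do not measure the breakdown of the proteins. In the dCas9 arm 0 were called by the 3 tools and 1 was lower at an unadjusted p under 0.05, Fos (-0.27 ± 0.10, SE), which stood at -0.66 ± 0.22 (SE, adjusted p = 0.0608 in edgeR) in the other arm. With ZF-SCN9A 1 was called lower, beside 0.041% of all genes called by edgeR in the dCas9 arm and 4.72% in this one. That gene was Egr1, an immediate early transcription factor. It went from 82.5 ± 6.03 to 47.9 ± 5.09 CPM (SD, n = 2), which is -0.78 ± 0.10 on the log2 scale (SE, adjusted p = 2.15e-11 in edgeR), and was called under all 16 alternatives. The dCas9 value of Egr1 was -0.03 ± 0.06 (SE, adjusted p = 0.928 in edgeR). Junb, also immediate early, had 0.04 and 0.02. Over the 7 tested genes the median log2 fold change was -0.01 with dCas9-SCN9A and -0.07 with ZF-SCN9A. Of the ZF-SCN9A values 2 were positive and 5 negative, from -0.78 to 0.46.

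The proteasome, to which midnolin delivers its clients, had 32 subunits listed and all were tested. None was called in either arm by edgeR, DESeq2 or limma-voom, beside 0.041% and 4.72% of all genes by edgeR. In the dCas9 arm 20 had positive and 12 negative values, with a median of 0.02 and 0 at an unadjusted p under 0.05. With ZF-SCN9A 29 had negative values, with a median of -0.12, and 12 were lower at an unadjusted p under 0.05. Over all 12899 genes of that arm 50.4% of values were positive and 1084 were lower at such a p. The most abundant subunits there were Psmd2 (-0.14 ± 0.06, SE), Psma6 (-0.02 ± 0.07, SE) and Psmd3 (-0.17 ± 0.07, SE), beside -0.11 ± 0.07 (SE) for Midn itself.

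Likeness to 1600002K03Rik was measured as the Pearson correlation of log2 CPM over the 10 libraries, after the mean of each arm was subtracted, among 10857 genes at 5 CPM or more. These correlations describe the libraries only: the genes share library depth, and 1600002K03Rik was chosen for the group difference that the correlation includes. The most alike were 1700086O06Rik (0.947), the mitochondrial protein gene Sfxn4 (0.931), the centromeric histone gene Cenpa (0.924), Gm10827 (0.924) and the deubiquitinase gene Josd2 (0.923). Their log2 fold changes were smaller than that of 1600002K03Rik in both arms, at 0.07 to 0.78 with dCas9-SCN9A and 0.11 to 0.92 with ZF-SCN9A. Cirbp came 456th with 0.680, Efna2 had 0.364 and Midn -0.535. Scn9a, the targeted gene, had -0.937.

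1600002K03Rik was chosen as higher with both repressors in these same libraries, so its sign under other handling of the counts is no support for that. The size of its log2 fold change ran from 0.77 to 1.06 over 18 alternatives with dCas9-SCN9A and from 0.95 to 1.42 over 16 with ZF-SCN9A. The widest moves in the zinc-finger arm came from leaving out a control library, with 1.42 without mCherry replicate 1 and 0.95 without mCherry replicate 2. Cirbp stayed positive under all of these alternatives, at 0.10 to 0.21 and 0.11 to 0.38, and was called under none of them.

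**Figure D5:**
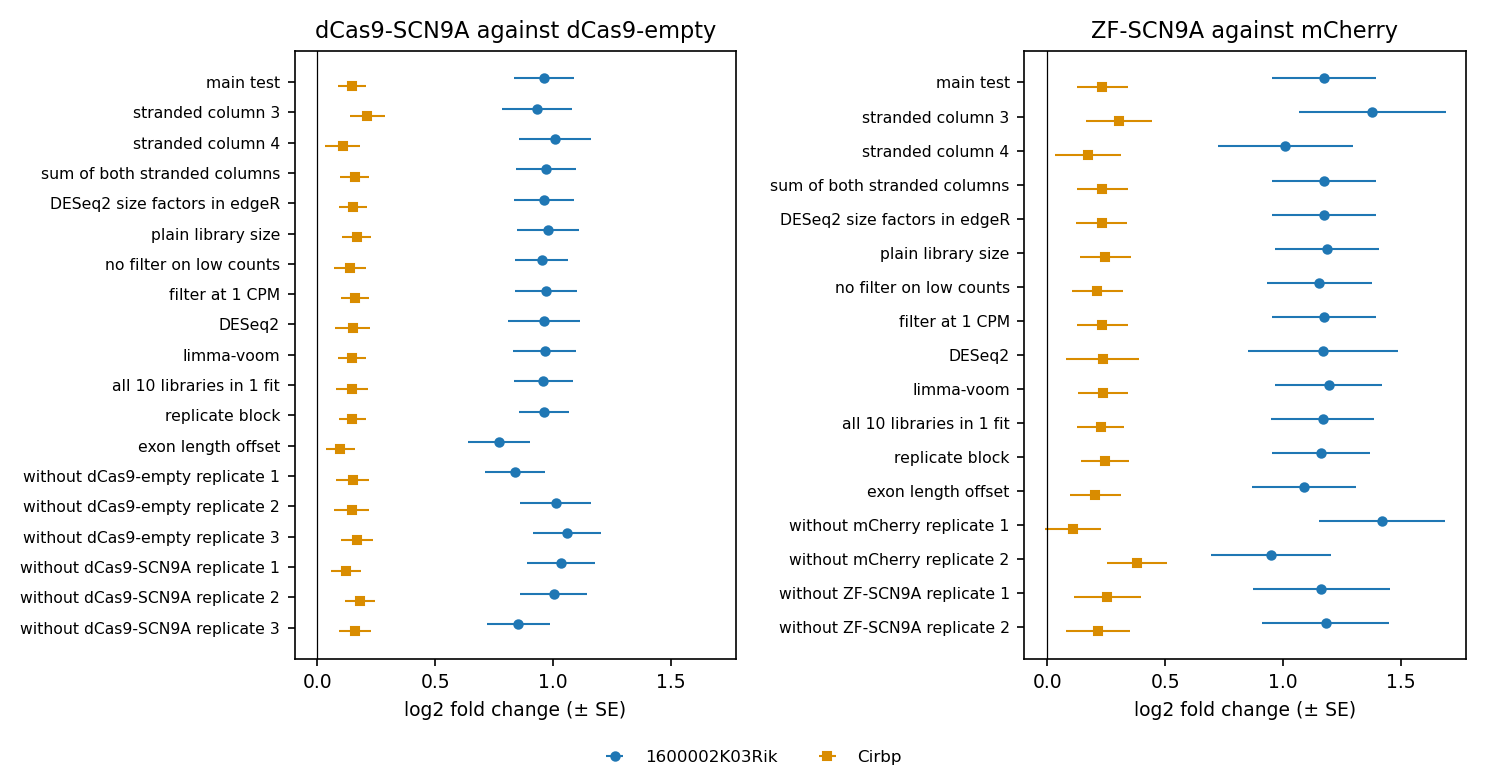
Log2 fold change (± SE, horizontal axis) of 1600002K03Rik (circles) and Cirbp (squares) under the main test and each alternative, named on the vertical axis, in both arms. 1600002K03Rik stays between 0.77 and 1.42 and Cirbp between 0.10 and 0.38.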

How the data were processed

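RNA of 10 Neuro2a libraries was sequenced. The authors deposited raw counts per gene in STAR's layout, with an unstranded column and 2 stranded ones. The tools named in the submitters' processing notes are bcl2fastq 2.20, STAR 2.7.3a and DESeq2, and the build is GRCm38. The sources used here do not give the counting settings. Of 55401 identifiers, 55141 were in GENCODE M21. Entries that name no gene (25.0% to 28.2% of reads) and plasmid entries were left out. Both strand columns held about equal reads, so the unstranded column was used.

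Each arm was fitted apart with edgeR 4.0.16 (R 4.3.3): TMM, filterByExpr, robust quasi-likelihood test, two-sided, Benjamini-Hochberg over all genes, called at an adjusted p under 0.05. The difference between the arms was a contrast over all 10 libraries. The residual degrees of freedom were 4 and 2, and for 88.0% of genes in the zinc-finger arm the spread was wholly shared across genes. The fit was tested on simulated data with known changes, set only in genes with higher counts and with the same spread for every gene. It therefore does not show how the fit handles low counts or spreads that differ between genes. Alternatives included DESeq2 1.42.0, limma-voom (limma 3.58.1), other scalings and filters, an exon length offset, a replicate block and leaving out each library. Replicates of a group differed by more than sampling noise (chi-square per degree of freedom of 1.92 or more in every pair). The labels do not say that replicates were separate cultures, so p-values measure only a spread between libraries, possibly a technical one.

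Members and gene lists were chosen with earlier results of these data known. Genes named are the members, the called and nearest neighbours, the 3 highest and 3 lowest at 10 CPM or more, called and most abundant list members, and the 5 most alike; Rbm3, Efna5, Fos and the other genes of the interval were added after their values were seen.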

Additional observations from a re-analysis of the deposited data

Results flagged for a closer look

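Of 144 genes of the window and the lists tested by the contrast over all 10 libraries, 2 (1.39%) had changes that differed between the repressors, near the 0.907% over all genes. Mum1, 51287 bases downstream of 1600002K03Rik, had a difference (dCas9-SCN9A minus ZF-SCN9A) of 0.82 ± 0.12 on the log2 scale (SE, adjusted p = 1.04e-04 in edgeR). Its values were 0.20 with dCas9-SCN9A (adjusted p = 0.325 in edgeR) and -0.61 with ZF-SCN9A. The difference ran from 0.70 to 0.92 over 20 alternatives, with an adjusted p of at most 0.0142. Egr1, from the midnolin list, had a difference of 0.76 ± 0.12 (SE, adjusted p = 2.97e-04 in edgeR), which ran from 0.66 to 0.88 over 20 alternatives with an adjusted p of at most 0.0174. The arms have different controls, depths and numbers of libraries, and the part of these in either difference was not tested.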

How the results depend on the processing

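1600002K03Rik, chosen as higher in these libraries, was so in both arms under every alternative tried; leaving out 1 library gave 0.84 to 1.06 with dCas9-SCN9A and 0.95 to 1.42 with ZF-SCN9A. Its difference between the arms was -0.44 in the first stranded column and ran from -0.46 to 0.0225 over the fits without 1 library, so its sign was not settled. Cirbp kept its sign and missed the threshold in both arms, and its difference between the arms ran from -0.22 to 0.0428 without 1 library. Efna2 changed sign with dCas9-SCN9A under the exon length offset (-0.0303) and over the fits without 1 library (-0.0846 to 0.15). With ZF-SCN9A it did so in the second stranded column (-0.0485), under the offset (-2.78e-04) and without 1 library (-0.19 to 0.29). Its difference between the arms was -0.0911 in the first stranded column, -0.00691 with DESeq2 size factors, -0.00230 with DESeq2, -0.0167 with limma-voom, -0.0300 under the offset and -0.25 to 0.24 without 1 library. Midn with dCas9-SCN9A was 0.0208 in the first stranded column, 0.00290 with the stranded columns summed, 0.0112 with plain library sizes, 0.00315 with a filter at 1 CPM and -0.0198 to 0.0171 without 1 library. None of these values of Efna2 and Midn passed the test.

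The number of genes called in the dCas9 arm (6) was 13 in the first stranded column, 172 with no filter, 28 with DESeq2, 29 with all 10 libraries in 1 fit, 2 under the offset and 1 to 34 without 1 library. In the zinc-finger arm (609) it was 283 and 275 in the stranded columns, 128 with DESeq2, 348 with all 10 libraries and 201 to 787 without 1 library. Neighbours called went from 0 to 1 with no filter in the dCas9 arm and 0 to 1 without 1 library, each time the small nuclear RNA gene Gm24019, named after its value was seen. In the zinc-finger arm they went from 7 to 3 in the second stranded column, 1 with DESeq2, 4 with all 10 libraries and 1 to 6 without 1 library. The causes were not tested.

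Under a block by replicate number, 262 genes (84 higher, 178 lower) and 1 neighbour, Gm24019, were called in the dCas9 arm. Same-numbered libraries correlated at 0.238, 0.161 and 0.0397 in the dCas9 arm, and differently numbered ones at -0.226 to 0.101. Each dCas9-SCN9A library correlated best with its own number, but dCas9-empty replicate 3 correlated better with dCas9-SCN9A replicate 2 (0.101). In the zinc-finger arm the values were 0.0662 and -0.0662. With 2 libraries per group they are equal in size by construction and cannot tell pairing. Whether the numbers pair the samples was thus not settled, and the main test took no pairing. The block moved no call of Cirbp, Efna2 or Midn, and 1600002K03Rik had 0.96 and 1.16 under it.

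Depth limits Efna2 and 1600002K03Rik most, with as few as 36 and 45 reads in a library.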
